A study of Mus musculus with 12 samples.

Results

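The cytosolic ribosomal protein genes are the genes for the protein parts of the ribosomes that translate nuclear-encoded messages. They were taken from the deposited count table by name, as every *Rpl* or *Rps* gene with a number and at most 1 further letter together with *Rplp0*, *Rplp1*, *Rplp2*, *Rpsa* and *Rps3a1*, and *Rps27l* was left out. This gave 80 genes of the 32288 in the table, 49 named for the large and 31 for the small subunit, on 19 chromosomes with 14 of them on chromosome 7 and 4 on the X chromosome. They were followed in *Osx*+ osteoblast-lineage cells sorted from the metaphysis of mouse femurs and tibias, in 4 groups and 12 RNA-seq libraries.

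All mice carried *Osx-CreERT2*, a tamoxifen-dependent Cre driven by the *Osx* (*Sp7*) promoter, and *mTmG*, a reporter that turns on membrane GFP where Cre has acted, and all cells were GFP+ and negative for CD31, CD45 and TER119. Juvenile cells (n = 4) came from 3-week-old and adult cells (n = 4) from 8-week-old mice without further alleles, with the bones of 2 male mice pooled per library. c-Myc-induced cells (n = 2) came from mice that also carried *LSL-tTA* and *Col1a1::TetO–c-Myc*, in which tTA made after recombination drives a c-Myc transgene, and c-Myc + R172H cells (n = 2) came from mice with *Trp53-LSL-R172H*, a mutant p53 allele, in addition. The control cells were taken 2 days after the last of 3 daily tamoxifen treatments and the induced cells 7 days after 2 treatments. The sample titles call them 3 weeks old and the isolation protocol 5 weeks old, their bones were trimmed 5 mm rather than 2 mm from the growth plate, and they came from both sexes by the labels and the cell isolation methods, although the methods elsewhere name males for RNA-seq. The methods also state that mice with the inducible transgene, or pregnant females, drank doxycycline or tetracycline beforehand to keep the transgene off. Age, trimming, sex, the tamoxifen schedule, this drug and the transgene alleles therefore cannot be told apart in any comparison of induced with juvenile cells. In bulk RNA, fewer cells of a type and less RNA per cell cannot be told apart either.

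Each ribosome carries 1 copy of nearly every ribosomal protein, the exception being the stalk proteins, so the genes of this family are usually transcribed in step, and they are among the most active genes of growing cells. MYC is known to raise the transcription of ribosomal protein genes and of the genes that make and assemble ribosomal RNA. Most of the family's messages begin with a terminal oligopyrimidine tract, a run of C and T that places their translation under mTOR control. Some members have further roles: RPL5 and RPL11 that are not built into ribosomes bind MDM2 and stabilise p53, and mutations of single members such as RPS19 or RPL35A cause the anemia named after Diamond and Blackfan.

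The family's genes have many near-identical copies in the genome. The counts are of reads placed at a single site, so reads from stretches found elsewhere may be missing from them, which was not measured. The share of each gene's principal transcript that this touches was measured as the percentage of its 86-base windows, the read length, that occur exactly at another annotated gene (GENCODE vM21, GRCm38). The median over the 80 genes was 41.5% and the highest 98.5% (*Rps27*). In all, 75 genes had such a window somewhere else, at 569 pseudogene loci summed over the genes, and 5, among them *Rps3* and *Rpl39l*, had none. *Rps3a1* (on the minus strand of chromosome 3 from 86137940 to 86142702), a small subunit protein, had 54.7% of its windows at other loci. The first of its coding windows below also occurs in Gm13408 and *Rps3a2*, and reads from it may not have been counted, whereas the other occurs at this gene alone.

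Rps3a1 shared window, transcript bases 443 to 528: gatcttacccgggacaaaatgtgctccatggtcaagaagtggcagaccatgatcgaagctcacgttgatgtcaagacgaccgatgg

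Rps3a1 private window, transcript bases 628 to 713: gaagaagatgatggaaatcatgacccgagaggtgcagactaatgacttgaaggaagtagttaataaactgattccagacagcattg

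*Rpl36* (plus strand of chromosome 17, 56613416 to 56614243), a large subunit protein and the member with the lowest adjusted p in c-Myc-induced cells, had 66.1% of its windows at other loci. The first window below is shared with Gm13611 and the other is its own.

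Rpl36 shared window: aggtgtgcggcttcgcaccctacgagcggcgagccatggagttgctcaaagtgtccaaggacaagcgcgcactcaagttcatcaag

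Rpl36 private window: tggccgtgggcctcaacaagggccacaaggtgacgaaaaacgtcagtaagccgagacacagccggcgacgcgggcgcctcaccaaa

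The counts do keep apart the paralogs *Rpl39* (minus strand of chromosome X, 37082520 to 37085402), whose protein lines the exit tunnel of the large subunit, and *Rpl39l* (plus strand of chromosome 16, 10170226 to 10174911), its copy known from male germ cells. Their coding sequences have 156 bases each and an identity of 85.3%, and the 23 bases that differ are in capitals below. They are shown because the pair gave different results in the induced cells. *Rpl39* had 4.55% of its windows at other loci and *Rpl39l* none.

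Rpl39: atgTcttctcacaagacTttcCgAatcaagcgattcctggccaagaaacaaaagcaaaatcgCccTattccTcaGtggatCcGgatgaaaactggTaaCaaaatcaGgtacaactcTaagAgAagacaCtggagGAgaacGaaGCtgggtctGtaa

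Rpl39l: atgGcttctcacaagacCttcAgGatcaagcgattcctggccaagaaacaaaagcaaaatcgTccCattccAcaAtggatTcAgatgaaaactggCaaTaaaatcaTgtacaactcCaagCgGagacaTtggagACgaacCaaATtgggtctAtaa

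In juvenile cells the members spanned a wide range of levels. Levels are given as CPM, counts scaled to library size with TMM factors over the 12 libraries, which take most genes as unchanged, and, to set genes side by side, as CPM per kilobase of the principal transcript, called RPKM here. In RPKM the 78 members with enough counts to be tested had a median of 126 and the highest was 78 times the lowest. By this measure the highest were *Rplp1* (588 ± 54.7 RPKM, SD, n = 4), *Rps12* (539 ± 74.1), *Rplp0* (452 ± 33.3), *Rps14* (409 ± 43.0) and *Rpl4* (407 ± 20.8). *Rplp0*, *Rplp1* and *Rplp2* form the stalk that recruits elongation factors, and *Rplp2* had 145, 135, 145 and 102 CPM in the 4 juvenile libraries against 313, 289, 316 and 257 CPM for *Rplp1*. Among the lowest were *Rpl27* (27.0 ± 3.75 RPKM), *Rps20* (16.5 ± 2.39), *Rps15a* (10.7 ± 1.76) and *Rpl39l* (7.54 ± 1.37). The annotated principal transcripts of *Rps20* (3706 bases) and *Rps15a* (5130 bases) are long for this family, and their RPKM divides by that length. Of the 77 pairs of neighbours in this order, only 3 had juvenile values that did not overlap, so the order is one of broad tiers rather than of single genes. It also depends on the length used, since reads from shared windows may be missing. Per kilobase of unique windows, over the 76 members with enough of them, *Rpl10* (1939) and *Rpl9* (1920) ranked 1 and 2 in juvenile cells, against 34 and 26 in RPKM. They had only 59 and 69 unique windows. *Rplp1* ranked 3, *Rplp0* 10, *Rps14* 11 and *Rpl4* 19, and *Rps20*, *Rps15a* and *Rpl39l* were again the lowest. Spearman's rho with the percentage of shared windows was -0.094 for juvenile RPKM and 0.48 for the level per kilobase of unique windows.

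**Figure D1:**
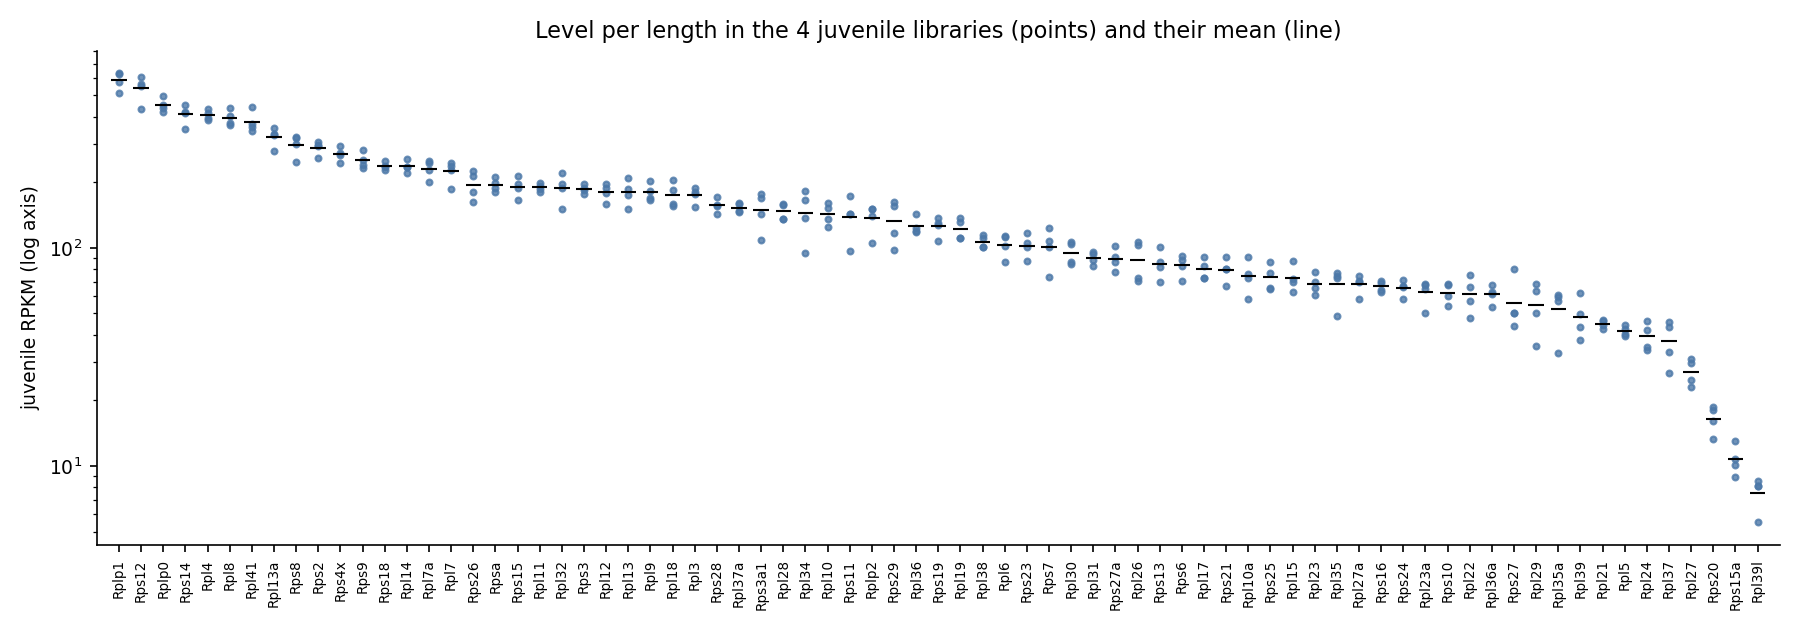
Juvenile level of 75 of the 78 tested members in RPKM on a log axis, ordered by their mean; points are the 4 juvenile libraries and lines their mean. The members run from *Rplp1* at 588 to *Rpl39l* at 7.54 RPKM, and the points of most neighbouring members overlap.

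The order was similar in the other groups. Across the 78 members, Spearman's rho between the mean levels of any pair of groups lay between 0.942 (juvenile and c-Myc) and 0.983 (juvenile and adult), a description over genes that share transcript lengths and libraries. *Rplp0* moved most in this order among the highest 5 members, from rank 3 in juvenile to rank 17 in c-Myc-induced cells, where its mean is of libraries at 606 and 309.9 CPM and the former lies within the juvenile range. A pair of members known from other tissues had few or no counts. *Rpl10l*, known from testis, had 0 counts in all 12 libraries. *Rpl3l*, the striated muscle copy of *Rpl3*, had 0 counts in all 8 control libraries, 11 and 8 counts in the c-Myc and 4 and 8 in the c-Myc + R172H libraries, which is at least 5.75-fold and at least 3.42-fold higher than a floor of 3 counts over the juvenile group. These 2 genes were not tested, and 78 members (47 large and 31 small subunit) were.

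The libraries held 9066154 to 15684412 counts. The family took 0.964%, 0.832%, 0.718% and 0.637% of them in the juvenile and 0.975%, 0.804%, 0.869% and 1.02% in the adult libraries, 2.26% and 1.87% in the c-Myc and 2.58% and 2.51% in the c-Myc + R172H libraries. Both induced groups lay above all 8 control libraries. Other genes took very different shares of the same libraries: *Col1a1*, the bone collagen gene, took 36.5% ± 2.48 of juvenile counts but 10.2% ± 1.49 in c-Myc and 5.72% ± 0.157 in c-Myc + R172H libraries, and the noncoding gene Gm26917 took 7.83%, 28.8% and 27.6%. With *Col1a1*, *Col1a2* and Gm26917 set aside, the family's mean share was 2.02% in juvenile, 1.80% in adult, 3.68% in c-Myc and 4.00% in c-Myc + R172H cells. On the CPM scale the family summed to 10274 ± 795 in juvenile (SD, n = 4), 10095 ± 485 in adult (n = 4), 15413 ± 1138 in c-Myc (n = 2) and 16112 ± 207 in c-Myc + R172H cells (n = 2). The c-Myc sum was thus 1.5 times and the c-Myc + R172H sum 1.57 times the juvenile one, both with exact two-sided permutation p = 0.0667, the smallest that 4 against 2 libraries allow (adjusted p = 0.114 over the 12 such tests made on summed values), and the juvenile and adult sums differed by less than their spread (ratio 1.02, exact p = 0.714).

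The balance between the subunits was compared as well. With these numbers of libraries no such test could reach an adjusted p below 0.05, so the values are given as a description. The summed CPM of large subunit members over that of small subunit members was 1.54 ± 0.0406 in juvenile and 1.44 ± 0.0166 in adult cells, and no juvenile library (1.51 to 1.58) reached down to the highest adult one (1.45; exact permutation p = 0.0286, the smallest that 4 against 4 allow, adjusted p = 0.114). The ratio was 1.39 and 1.34 in the c-Myc and 1.33 and 1.39 in the c-Myc + R172H libraries, below all controls (exact p = 0.0667 against juvenile for either group, adjusted p = 0.114). *Rplp0* alone carried part of this ratio: without it the ratio was 1.39 ± 0.0375 in juvenile, 1.31 ± 0.0089 in adult, 1.30 ± 0.0122 in c-Myc and 1.27 ± 0.0161 in c-Myc + R172H cells, and c-Myc replicate 1 (1.304) then lay within the adult range (1.299 to 1.314).

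**Figure D2:**
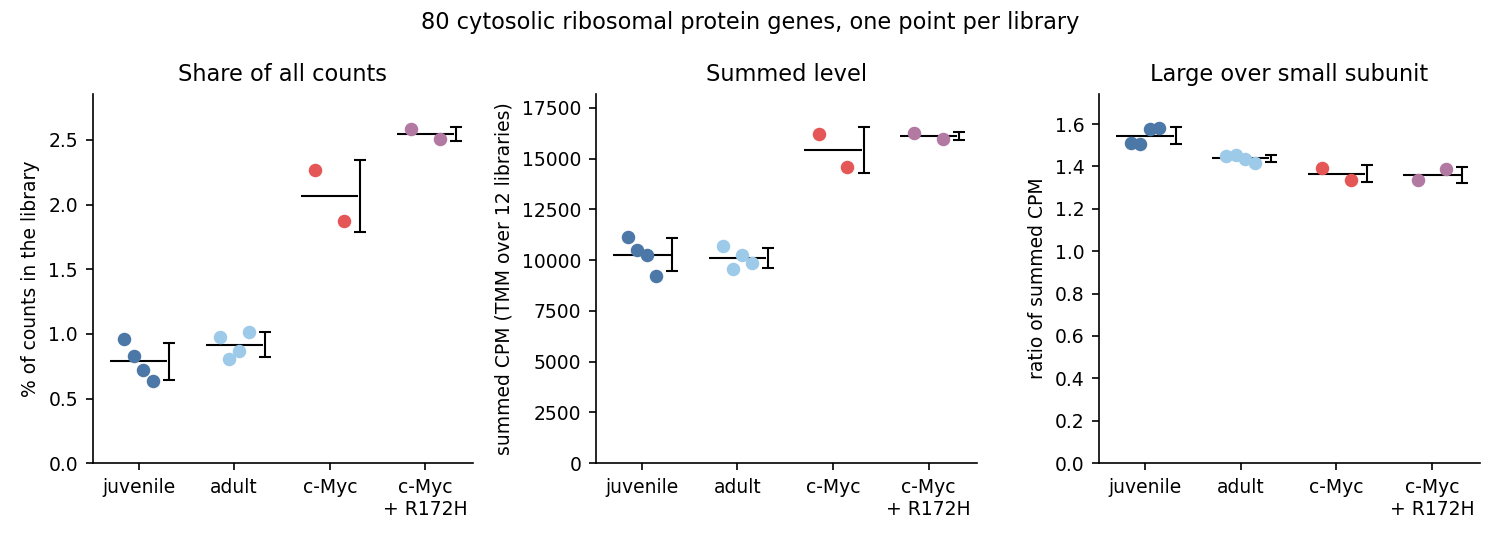
The 80 genes together in each library (points), with the group mean (line) and SD (bar): their percentage of all counts, their summed CPM, and the ratio of large to small subunit members. Shares of counts run from 0.637% to 1.02% in the 8 control and from 1.87% to 2.58% in the 4 induced libraries, and the ratio is highest in the juvenile libraries.

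The first comparison asks whether the family differs between juvenile and adult cells. The 78 members were tested by edgeR's quasi-likelihood test, adjusted over all 11345 genes. At an adjusted p below 0.05 (from here on, called) 0 were higher and 1 was lower in juvenile cells. Of all genes 1.89% and 3.23% were called higher and lower. The members' counts are near these shares, so they do not set the family apart from other genes. Without adjustment 7 members had p below 0.05, against 2233 of all 11345 genes. DESeq2 called 1 member higher and 1 lower, where it called 319 of all genes higher and 616 lower. The median log2 fold change of the members was -0.018 against 0.0009 for all genes, 0.028 for large and -0.083 for small subunit members.

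The members described next did not pass the test. *Rpl29*, whose loss in mice slows growth and weakens bone, had 45.0, 35.6, 48.7 and 25.2 CPM in juvenile and 27.5, 21.6, 27.8 and 22.7 in adult libraries, so that juvenile replicate 4 lay among the adults (log2 fold change 0.63 ± 0.19 SE, adjusted p = 0.0651). *Rps23*, at the decoding centre, had 98.5, 109, 94.3 and 81.7 CPM in juvenile and 134, 118, 119 and 121 in adult libraries, without overlap (-0.37 ± 0.12, adjusted p = 0.0782). *Rpl35a* had a difference of -0.53 (adjusted p = 0.123), and *Rpl34* 0.32, *Rpl14* 0.30, *Rpl4* 0.29, *Rpl10* 0.25, *Rpl22* -0.31 and *Rps27* -0.30, none of them called. *Rpl5* and *Rpl11*, the pair that binds MDM2, each had -0.22, with the *Rpl11* values of juvenile (149.7 to 166 CPM) and adult libraries (167 to 193) just apart. The chondrocyte markers fixed as a check summed to 8412 to 24882 CPM in juvenile and 33008 to 120087 in adult libraries, and 3 of 10 osteoblast markers were called higher in juvenile cells, and whether they have a part in these differences was not tested.

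The second comparison sets c-Myc-induced against juvenile cells. *Myc* itself was at 39.8 to 52.2 CPM in the juvenile and at 624 and 658 in the c-Myc libraries (log2 fold change 3.78), as the labels state. Of the 78 members 66 were called higher and 1 lower with TMM scaling, 75 higher and 0 lower with library totals, and 11 higher and 9 lower when each library was scaled to the family's own sum, a scale on which the family cannot move as a whole. Over all 12588 genes 28.4% were called higher and 25.0% lower with TMM scaling, 54.0% and 8.86% with library totals, and 15.3% and 41.1% with the family's own sum. The members' median log2 fold change was 0.62, against 0.04 for all genes. With library totals these medians were 1.45 and 0.87, and with the family's own sum 0.055 and -0.53. A change of scaling shifts all genes by nearly the same amount, so the gap between these medians cannot test the scaling. Most rises were modest: 6 members were at least 2-fold higher, where 18.4% of all genes were called higher with at least that fold. Both subunits took part, with 38 of 47 large (median 0.61) and 28 of 31 small subunit members (median 0.63) called higher. In 68 members, called or not, both c-Myc libraries lay above all 4 juvenile ones, as they did in 4499 of all 12588 genes.

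**Figure D3:**
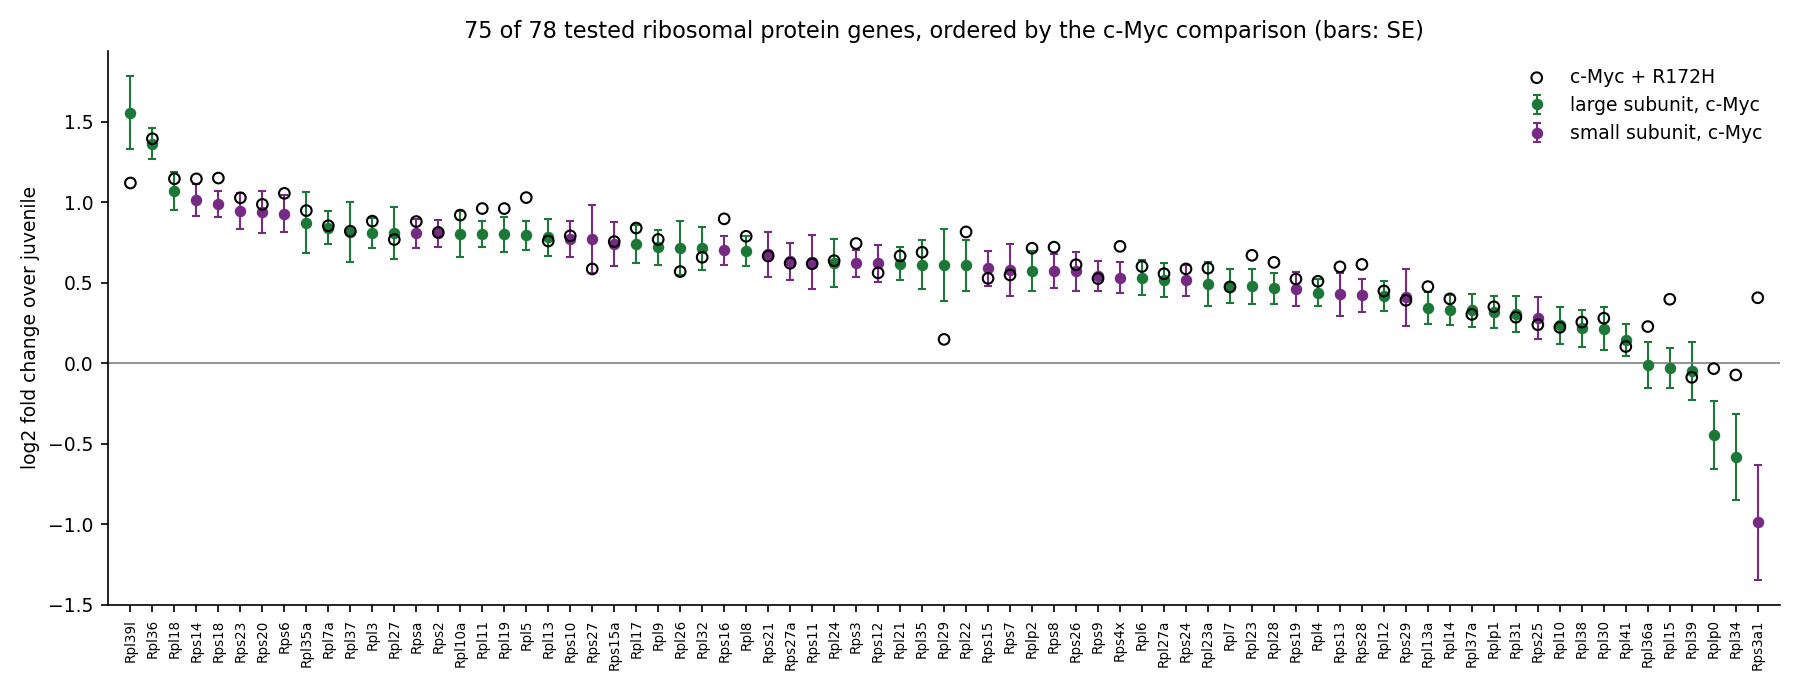
Log2 fold change over juvenile cells with TMM scaling for 75 of the 78 tested members, ordered by the c-Myc comparison; filled points with SE bars are c-Myc-induced cells, coloured by subunit, and open circles are c-Myc + R172H cells, fitted with the same juvenile libraries. Most points lie above 0. In c-Myc-induced cells 6 members lie below 0, furthest *Rps3a1*, *Rpl34* and *Rplp0* (*Rpl34* and *Rplp0* above 0 with library totals, at 0.23 and 0.40). With the scaling to the family's own sum 11 members are called higher.

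*Rpl36* rose from 45.6, 47.3, 54.8 and 45.5 CPM in juvenile libraries to 126 in both c-Myc libraries (log2 fold change 1.37 ± 0.10 SE, adjusted p = 2.55e-07). Both lay far above the juvenile values. *Rpl39l* had 6.48, 4.44, 6.54 and 6.83 CPM in juvenile and 19.5 and 16.8 in c-Myc libraries (1.56 ± 0.23, adjusted p = 9.23e-05). Its parent *Rpl39*, whose sequence is set beside it above, had 38.0, 30.4, 26.6 and 23.2 CPM in juvenile and 29.9 and 28.5 in c-Myc libraries, within the juvenile range (-0.05 ± 0.18, adjusted p = 0.841). *Rpl18* had 139.3, 125, 107 and 105.1 CPM in juvenile and 274 and 236 in c-Myc libraries, without overlap (1.07 ± 0.12, adjusted p = 9.14e-06). *Rps14* (1.01), recurrently deleted in myelodysplasia, was also at least 2-fold higher, and *Rps18* (0.99), *Rps23* (0.95), *Rps20* (0.94) and *Rps6* (0.93), phosphorylated downstream of mTOR, were close to that. *Rpl39l*, *Rpl36*, *Rpl18* and *Rps14* stayed called higher on the scale of the family's own sum, with log2 fold changes from 0.46 to 0.99.

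Of the members with known further roles, most of those described here were called higher. *Rpl5* went from 90.2, 86.9, 82.6 and 80.4 CPM to 155 and 145, and *Rpl11* from 160.2, 155, 166 and 149.7 CPM to 288 and 270.2, both by 0.80 on the log2 scale and both without overlap. The other p53-related members *Rpl26*, which binds the *Trp53* message, and *Rpl23*, which binds MDM2, rose by 0.72 and 0.48, the latter at -0.084 on the scale of the family's own sum. *Rpsa*, the laminin receptor precursor of the small subunit, rose by 0.81, *Rpl10a* by 0.80, *Rps27a*, made as a fusion with ubiquitin, by 0.63, *Rps3*, at the channel where messages enter, by 0.62, *Rpl22* by 0.61, *Rps26* by 0.57 and *Rps19* by 0.46. *Rps4x* rose by 0.53 and was the only 1 of the 4 X-linked members to be called, since *Rpl10* had 0.24 (adjusted p = 0.103), *Rpl36a* -0.01 and *Rpl39* -0.05. *Rpl38*, known for its role in patterning the axial skeleton, had 0.22 (adjusted p = 0.126) and *Rps25* 0.28 (adjusted p = 0.0922).

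Of the stalk proteins *Rplp2* and *Rplp1* were called higher and *Rplp0* was not called, and the difference between them was not tested. *Rplp2* rose by 0.57 to 203 and 195 CPM and *Rplp1* by 0.32 to 398 and 346 CPM (adjusted p = 0.0179). *Rplp0* (plus strand of chromosome 5, 115559467 to 115563727), their anchor, had 676, 612, 597 and 569 CPM in juvenile libraries but 606 and 309.9 in the c-Myc libraries, a 1.95-fold gap between replicates of 1 group (-0.45 ± 0.21, adjusted p = 0.09997). Without c-Myc replicate 2 its difference was -0.04 and without replicate 1 it was -1.002 and called (adjusted p = 0.000481). DESeq2 also called it lower (adjusted p = 0.0456), and with library totals its direction turned (0.40, adjusted p = 0.174).

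*Rps3a1* was the single member called lower, and it stood on 1 library. It had 173, 166, 106 and 139.5 CPM in juvenile and 42.5 and 108 in c-Myc libraries, so the second c-Myc library lay within the juvenile range (-0.99 ± 0.36, adjusted p = 0.0470). The adjusted p was below 0.05 in 10 of 19 alternatives and ran from 5.98e-12 to 0.589. Without c-Myc replicate 1 the difference was -0.46 (adjusted p = 0.120) and without replicate 2 it was -1.81, and the call was also lost without juvenile replicate 1 or 4 or either c-Myc + R172H library. *Rpl34* (minus strand of chromosome 3, 130726831 to 130730398) showed the same kind of gap, with 65.8, 79.3, 87.2 and 45.2 CPM in juvenile and 32.5 and 61.5 in c-Myc libraries (-0.58 ± 0.27, adjusted p = 0.0843), and it was called without c-Myc replicate 2 (-1.11) or juvenile replicate 4 (-0.74) and turned to 0.23 with library totals (adjusted p = 0.475). *Rpl29* (plus strand of chromosome 9, 106429454 to 106431568) was called higher, but its c-Myc values of 47.3 and 72.6 CPM overlapped the juvenile ones (0.61 ± 0.23, adjusted p = 0.0377), and without c-Myc replicate 2 it had 0.27 (adjusted p = 0.470). These 4 members had the widest gaps between the c-Myc libraries, from 1.54-fold (*Rpl29*) to 2.53-fold (*Rps3a1*), where the median gap over the members was 1.11-fold. Between the c-Myc + R172H libraries the median gap was 1.04-fold and the widest 1.35-fold (*Rpl39l*). The remaining members that were not called were *Rpl15* (-0.03), *Rpl41* (0.14), *Rpl30* (0.22) and *Rps29* (0.41, adjusted p = 0.0667).

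**Figure D4:**
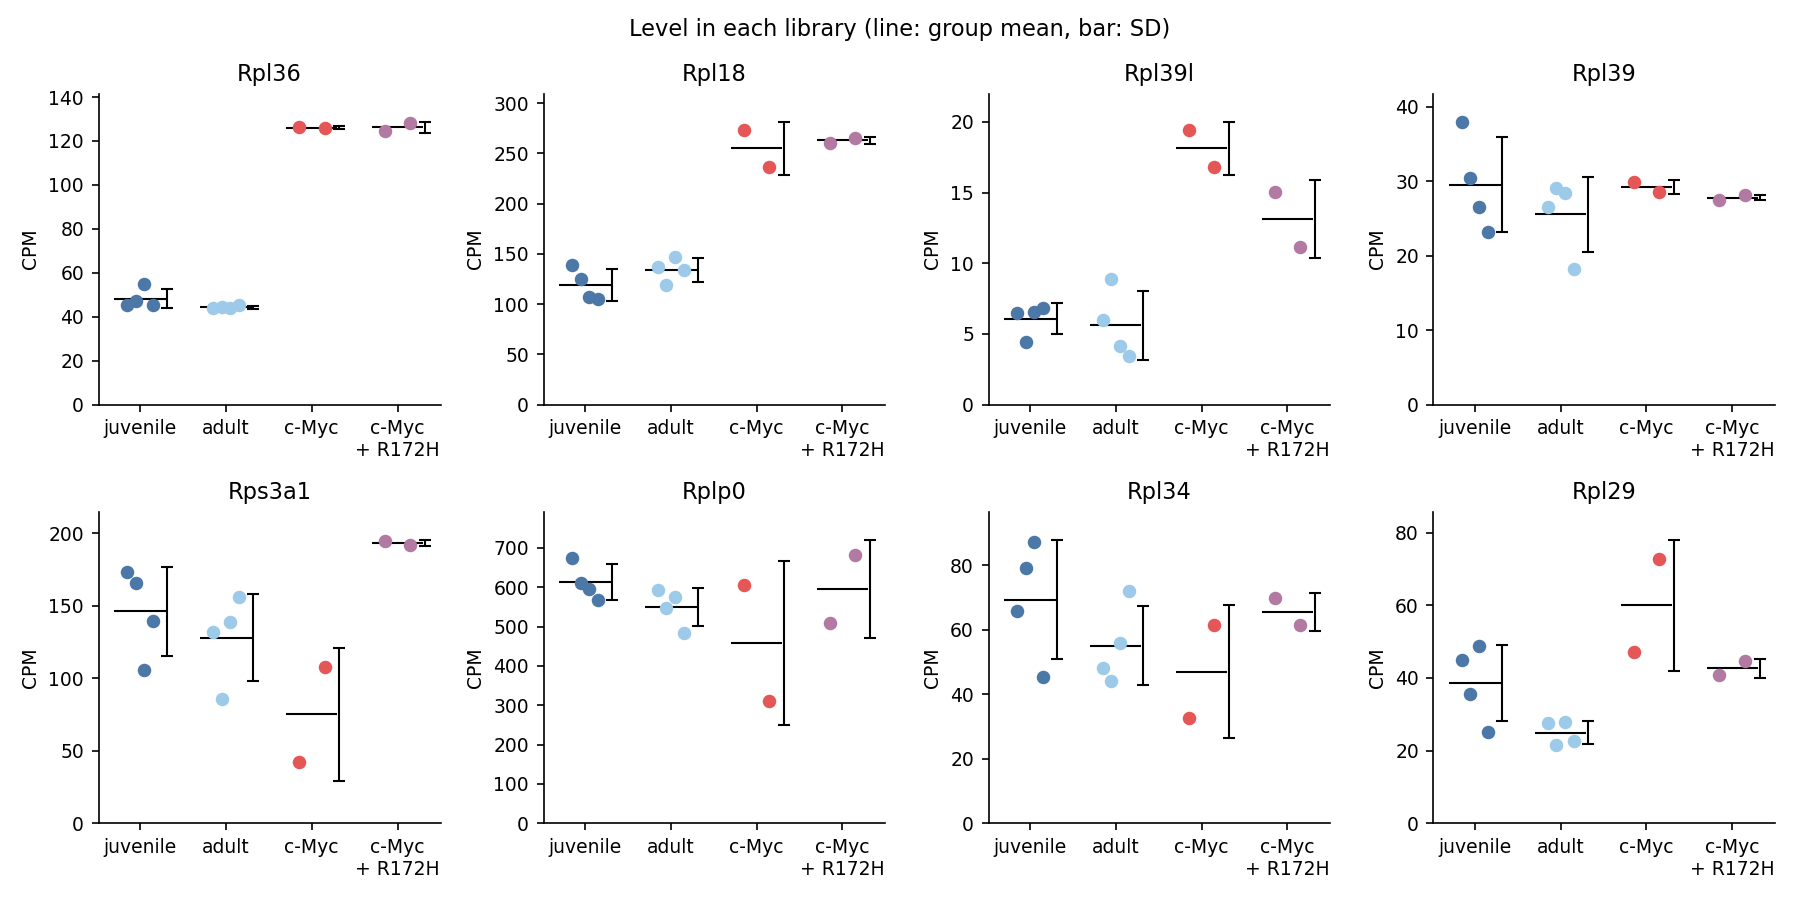
CPM of 8 members in each of the 12 libraries (points) with group mean (line) and SD (bar). *Rpl36*, *Rpl18* and *Rpl39l* lie higher in all 4 induced than in all juvenile libraries, *Rpl39* does not, and *Rps3a1*, *Rplp0*, *Rpl34* and *Rpl29* show the widest gaps between the 2 c-Myc libraries.

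Features of the genes were compared with these calls as a description. Members with under 10% of windows at other loci were called higher in 12 of 13 cases (median log2 fold change 0.68), those with 10 to under 50% in 28 of 35 (0.52) and those with 50% or more in 26 of 30 (0.73), and Spearman's rho of the log2 fold change was 0.12 with that percentage and 0.10 with transcript length over the 78 members. Of the 80 genes, 30 hold 58 small nucleolar RNA genes between them, and 21 overlap a gene on the other strand. The strand setting of the counting was not given in the sources used here, so reads of those overlapping genes may not be separable.

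Promoters of 60 members (71 promoters, RefSeq on GRCm38.p6, from 250 bases before to 50 after each annotated start) were searched for 3 motifs. The letters CACGTG, the E-box that MYC binds and its own reverse complement, were in 11.3% of the members' promoters and in 7.15% of all 32851 promoters. A C followed by at least 4 further C or T, on the sense strand and starting within 10 bases of the annotated start, was in 54.9% of the members' and 30.7% of all promoters. TATAAA on the sense strand in the last 50 bases before the start was in 0 of 71 and in 2.63% of all. Of the 6 tested members with an E-box 5 were called higher in c-Myc-induced cells (median log2 fold change 0.40) and of the 52 without one 43 (0.61). With the pyrimidine tract 30 of 35 were called (0.58) and without it 18 of 23 (0.59). The E-box is shown in capitals below in the upstream sequence of *Rpl13a* (0.35, called) and of *Rpl34* (-0.58, not called).

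Rpl13a, chr7:45128746-45128995, minus strand: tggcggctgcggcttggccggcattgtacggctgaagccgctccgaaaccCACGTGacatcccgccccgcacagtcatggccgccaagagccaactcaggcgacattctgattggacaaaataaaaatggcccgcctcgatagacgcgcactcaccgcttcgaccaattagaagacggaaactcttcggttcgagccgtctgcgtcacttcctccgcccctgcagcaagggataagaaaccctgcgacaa

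Rpl34, chr3:130730399-130730648, minus strand: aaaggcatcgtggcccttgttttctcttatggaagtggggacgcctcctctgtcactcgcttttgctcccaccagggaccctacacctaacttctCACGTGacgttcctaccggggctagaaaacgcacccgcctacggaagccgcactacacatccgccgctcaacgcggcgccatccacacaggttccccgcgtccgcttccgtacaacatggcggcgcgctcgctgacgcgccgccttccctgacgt

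The pyrimidine tract is in capitals in the next stretches, each from 10 bases before an annotated start to 10 or 20 bases after it. *Rps12*, *Rpl13a*, *Rpl18* and *Rpl39l* had the tract by this rule. *Rplp0*, *Rps4x* and *Rps3a1* did not have it in this window.

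Rps12, chr10:23787190-23787219, minus strand: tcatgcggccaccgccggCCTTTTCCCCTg

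Rpl13a, chr7:45128726-45128755, minus strand: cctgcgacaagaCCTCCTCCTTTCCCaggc

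Rpl18, chr7:45718061-45718090, plus strand: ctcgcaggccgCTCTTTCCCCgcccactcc

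Rpl39l, chr16:10170218-10170237, plus strand: aggCCTTTCCggatttccgg

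Rplp0, chr5:115559457-115559476, plus strand: cgggtttcgaggaccgcctg

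Rps4x, chrX:102189382-102189401, minus strand: gctgggcggagcaacccagg

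Rps3a1, chr3:86142659-86142678, minus strand: gccggaagggcgaaagagca

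The third comparison asks what mutant p53 adds to c-Myc. With edgeR 0 of 78 members were called in either direction between c-Myc + R172H and c-Myc-induced cells, where 0.00794% of all genes were called higher and 0.461% lower. Without adjustment 3 members had p below 0.05, against 589 of all 12588 genes. DESeq2 called 0 members and had 2 with unadjusted p below 0.05, where it called 6 of all genes higher and 195 lower. The median log2 fold change was 0.06, and the 6 members furthest from 0 were *Rps3a1*, *Rpl34*, *Rpl29*, *Rpl39l*, *Rpl15* and *Rplp0*. *Rps3a1* was at 194 and 192 CPM in the c-Myc + R172H libraries, above the 42.5 and 108 of the c-Myc and the highest of 173 of the juvenile libraries (1.39 ± 0.40, adjusted p = 0.403). Without c-Myc replicate 2 the difference was 2.19 and called (adjusted p = 0.0116) and without replicate 1 it was 0.84. *Rpl15* had 50.3, 56.1, 70.1 and 57.8 CPM in juvenile, 59.4 and 56.8 in c-Myc and 79.9 and 73.3 in c-Myc + R172H libraries, the last above all the others named here (0.43 ± 0.14, adjusted p = 0.480). It was called where only the 4 induced libraries were fitted (adjusted p = 0.000539), a fit that called 189 of all genes higher and 440 lower. That fit had 2 residual degrees of freedom, against 5 in the reported one. It leaned more on the spread shared across genes (median 32.6 prior degrees of freedom against 7.18). *Rplp0* was at 508 and 683 CPM, on either side of the juvenile range (0.41, and -0.019 without c-Myc replicate 2), and *Rpl34* at 69.8 and 61.4 CPM, within it (0.51). *Rpl29* was at 40.7 and 44.5 CPM, also within the juvenile range (-0.46), *Rpl39l* was at 15.1 and 11.2 CPM, above it (-0.44), and *Rpl36a* (0.24), *Rps27* (-0.19), *Rpl26* (-0.15) and *Rps15* (-0.06) completed the extremes. *Myc* had 639 and 748 CPM in these libraries. The counts cannot show the R172H change itself.

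The fourth comparison sets c-Myc + R172H against juvenile cells, and it shares its juvenile libraries with the second. With TMM scaling 66 members were called higher and 0 lower, with library totals 78 and 0, and with the family's own sum 11 and 12, against 30.4% and 26.3% of all genes called higher and lower with TMM, 60.9% and 9.29% with library totals, and 14.7% and 44.0% with the family's own sum. The median of the members was 0.65 and that of all genes 0.08, and these were 1.68 and 1.12 with library totals and -0.0067 and -0.58 with the family's own sum. Of the members 10 were at least 2-fold higher, where 19.6% of all genes were called so. *Rpl36* had 124 and 128 CPM (1.40), and *Rps18*, *Rpl18* and *Rps14* each had 1.15. *Rpl5* reached 180.02 and 166 CPM (1.03) and *Rpl11* 308 and 304 CPM (0.96), all above the juvenile libraries. The 12 members that were not called were *Rpl39* (-0.09), *Rpl34* (-0.07), *Rplp0* (-0.03), *Rpl41* (0.10), *Rpl29* (0.15), *Rpl10* (0.22), *Rpl36a* (0.23), *Rps25* (0.24), *Rpl38* (0.26), *Rpl30* (0.28), *Rps29* (0.39) and *Rps3a1* (0.41, adjusted p = 0.335). *Rps27* was called (0.59, adjusted p = 0.0314) with values that overlapped the juvenile ones, and it stayed below 0.05 in 8 of 19 alternatives.

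**Figure D5:**
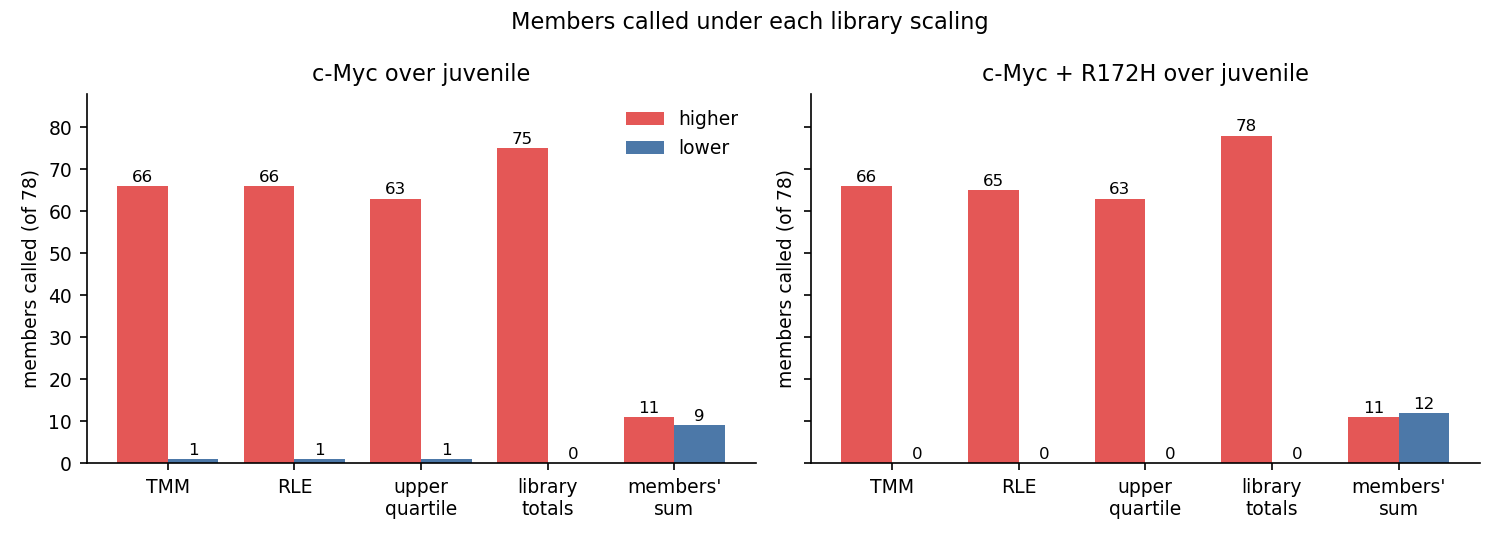
Number of the 78 tested members called higher and lower over juvenile cells under 5 ways of scaling the libraries, for c-Myc (left) and c-Myc + R172H (right). With TMM, relative log expression (RLE), upper quartile or library totals 63 to 78 are higher, and with the family's own sum 11 are higher and 9 or 12 lower.

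Genes that work with the family gave the following in c-Myc-induced over juvenile cells, from lists written down for this report. Of 7 genes outside the naming rule, namely second copies, fusion genes and *Rack1*, a scaffold protein bound to the small subunit, 5 were higher (median 0.56), among them *Rps27l*, a p53-responsive copy of *Rps27* (1.43), *Rpl7l1* (1.20), *Fau*, a fusion of the small subunit (0.56), and *Rack1* (0.34), with *Rpl22l1* (0.40) and *Rpl36al* (0.33) not called. Of 26 other messages with a pyrimidine tract 21 were higher (median 1.03), among them *Npm1* (2.60), *Hnrnpa1* (2.01) and *Nap1l1* (1.94), while the elongation factors *Eef1a1* (0.00) and *Eef2* (0.09) and *Tpt1* (-0.16) were not called. Of 18 chaperones and assembly factors for ribosomal proteins 15 were higher (median 1.57). All 29 ribosome biogenesis genes tested were higher (median 2.23), such as *Ncl* (2.53), *Fbl* (2.59) and *Nop56* (2.22). Of 78 mitochondrial ribosomal protein genes 59 were higher (median 1.16). The cytosolic members' median on the same scale was 0.62, above that of the first of these lists and below those of the other lists for which a median is given here, and no test of these differences was made. In c-Myc + R172H over juvenile cells the counts were 5 of 7, 22 of 26, 15 of 18, 29 of 29 and 57 of 78 higher, none of these genes was called between the 2 induced groups, and between juvenile and adult cells only 1 biogenesis gene, lower in juvenile cells, was called.

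Of the p53 genes, *Trp53* (1.37), *Mdm2* (0.93) and *Mdm4* (0.87) were called higher in c-Myc-induced cells and *Cdkn1a*, the p53 target encoding p21, had 0.01. In c-Myc + R172H over juvenile cells *Cdkn1a* had -0.44 and was called lower.

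Markers of cell types moved with the induced groups. All 10 osteoblast markers (median -1.99) and all 8 chondrocyte markers (median -5.63) were called lower in c-Myc-induced than in juvenile cells, and all 6 proliferation genes were called higher (median 2.80). The summed chondrocyte markers ran from 8412 to 24882 CPM in juvenile, 335 to 530.2 in c-Myc and 156 to 159.7 in c-Myc + R172H libraries, and the proliferation genes from 85.0 to 117, 565 to 610.1 and 585 to 627 CPM. Osteoclast markers were at 203 to 332 CPM in juvenile, 84.0 to 104 in c-Myc and 52.2 to 52.3 in c-Myc + R172H libraries. Of 4 marrow stromal markers 3 were called lower in c-Myc (median -1.12) and 4 in c-Myc + R172H over juvenile cells (median -2.07), and they summed to 260.8 to 345.6 CPM in juvenile, 76.2 to 149.5 in c-Myc and 61.6 to 79.7 in c-Myc + R172H libraries. Hematopoietic markers were at most 9.28 CPM in any library, with 2 or 3 of 7 at 0 in each group, and the endothelial, erythroid and skeletal muscle lists were at or near 0. Whether these differences in markers have a part in the members' values was not tested.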

How the data were processed

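Raw counts per gene were used as the authors deposited them. Per the labels, the study's methods and the submitters' processing notes, mGFP+ cells negative for CD31, CD45 and TER119 were sorted, libraries were made with a directional kit and sequenced single-end, and the reads were converted with bcl2fastq 2.20, trimmed with cutadapt 4.6, aligned with STAR 2.7.11a and counted per gene on GENCODE vM23 with HTSeq 2.0.5. The strand setting was not given in the sources used here. Totals were 9066154 to 15684412 counts a library, of which the family held 73672 to 355187.

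Groups were taken from the sample titles. Counts were scaled by TMM and tested with edgeR 4.0.16 in R 4.3.3 (filterByExpr, robust quasi-likelihood F test), with Benjamini-Hochberg adjustment over all genes, calls at an adjusted p below 0.05 and no fold threshold. The juvenile and adult libraries had a fit of their own, and the other 3 comparisons shared a fit of 8 libraries. SE is the log2 fold change over the root of F. Summed values were compared by exact permutation of libraries. The procedure was tested on simulated counts in which few genes changed, in random directions, and all genes had the same dispersion. Such counts lack the large shifts between induced and juvenile libraries, so they cannot test the scaling. The family and the gene lists were chosen with earlier results of these data known. Named members are the 5 with the largest rise and fall in each comparison with a mean of at least 10 CPM, the 5 highest and 5 lowest in level, and members with a listed role. *Rps4l*, on that list, was not in the table. Some members and 1 gene of the lists are not reported here by name or plotted singly, and counts over the family and lists include them. *Rpl41*, *Rpl30*, *Rps29*, *Rpl13a* and other members outside the rule were named after their values were seen, to account for every member not called or for a sequence. The labels do not say that induced libraries came from separate mice, so p-values measure the spread between libraries, which may be technical. Library titles and library names number the adult replicates differently, and titles were used. Principal transcripts, coordinates and coding sequences come from GENCODE vM21 (GRCm38), another release than the counting, and promoters from RefSeq on GRCm38.p6, where 60 of 80 members matched. Shared windows are exact matches of 86 bases at a gene that does not overlap the member. Alternatives were RLE, upper-quartile and total-count scaling, scaling to the family's own sum, scaling without *Col1a1*, *Col1a2* and Gm26917, 2 other count filters, other sets of libraries in the fit, DESeq2 1.42.0, a replicate block and leaving out each library. Replicates differed by more than counting error over all genes (chi-square per degree of freedom 5.45 to 136), so none was counted as a repeat of another.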

Additional observations from a re-analysis of the deposited data

Results flagged for a closer look

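In groups of 4 libraries, the named members were searched for a library far from the other 3 by Dixon's ratio, and 7 of 86 groups were marked, where chance marks about 1 in 20. *Rpl39l* in juvenile replicate 2 was at 4.44 CPM, below the other juvenile libraries at 6.48 to 6.83. *Rpl35a* was low in juvenile replicate 4, at 16.1 CPM against 28.0 to 29.8, and in adult replicate 2, at 27.8 CPM against 38.9 to 40.7. *Rpl4* in adult replicate 1 was at 575 CPM, above 483 to 493 in the others, and *Rps23* in the same library at 134 CPM, above 118 to 121. In adult replicate 3 *Rps18* was low, at 128 CPM against 144 to 146, and *Rps15a* high, at 74.4 CPM against 47.8 to 51.0. The family's share of counts, its summed CPM and the ratio of its subunits, searched in the same way, were not marked in either group.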

How the results depend on the processing

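Scaling moved the family's medians over juvenile cells more than the other choices did. With library totals the members' median log2 fold change was -0.24 between juvenile and adult cells, and so was that of all genes. There 5 members were lower, as were 793 of all 11345 genes. The members' median was 1.45 for c-Myc over juvenile (0 lower), 0.27 for c-Myc + R172H over c-Myc and 1.68 for c-Myc + R172H over juvenile. Those of all genes were 0.87, 0.21 and 1.12. With this scaling the family summed to 7877 CPM in juvenile, 9166 in adult, 20668 in c-Myc and 25460 in c-Myc + R172H cells. With the family's own sum the medians of the last 3 comparisons were 0.055, -0.029 and -0.0067, with 11 higher and 9 lower for c-Myc and 11 higher and 12 lower for c-Myc + R172H over juvenile. Where at least 1 of both fits made a call, directions turned with library totals for *Rpl15* (0.81), *Rpl36a* (0.82) and *Rpl39* (0.77) in c-Myc, and for *Rpl34* (0.97), *Rplp0* (1.00) and *Rpl39* (0.94) in c-Myc + R172H over juvenile cells. With the family's own sum they turned in c-Myc for *Rplp1* (-0.25), *Rpl10* (-0.33), *Rpl14* (-0.24), *Rps4x* (-0.032), *Rpl4* (-0.13), *Rps19* (-0.099), *Rpl23* (-0.084) and *Rpl41* (-0.43), and in c-Myc + R172H for *Rplp1* (-0.31), *Rpl10* (-0.43), *Rps25* (-0.41), *Rpl15* (-0.27), *Rps27a* (-0.040), *Rps26* (-0.038), *Rpl14* (-0.26), *Rpl4* (-0.15), *Rps19* (-0.13), *Rpl38* (-0.41), *Rpl26* (-0.075), *Rps12* (-0.092), *Rps15* (-0.12), *Rpl36a* (-0.43), *Rps27* (-0.058) and *Rpl41* (-0.56).

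In 91 of 121 cases where a named member's direction turned, it was called neither in the reported fit nor in the alternative. For juvenile over adult these were with library totals *Rplp1* (-0.15), *Rps25* (-0.15), *Rps26* (-0.11), *Rplp2* (-0.050), *Rps3a1* (-0.059), *Rpl10a* (-0.070), *Rpl39l* (-0.12), *Rps19* (-0.14), *Rpl38* (-0.23), *Rpl36* (-0.14), *Rps12* (-0.10) and *Rplp0* (-0.080). For c-Myc over juvenile these were with library totals *Rpl34* (0.23) and *Rplp0* (0.40), with the family's own sum *Rps25* (-0.28) and *Rpl38* (-0.35), without a filter *Rpl15* (0.025), *Rpl36a* (0.043) and *Rpl39* (0.0082), with all 12 libraries fitted *Rpl36a* (0.011), and with a replicate block *Rpl15* (0.096). For c-Myc + R172H over c-Myc these were with library totals *Rpl10* (0.19), *Rps25* (0.17), *Rps27a* (0.20), *Rpl26* (0.060), *Rps12* (0.15), *Rps15* (0.15), *Rpl39* (0.17), *Rps27* (0.026) and *Rpl41* (0.17), with the family's own sum *Rplp1* (-0.060), *Rps15a* (-0.077), *Rps26* (-0.055), *Rpl14* (-0.024), *Rps20* (-0.046), *Rpl4* (-0.024), *Rpsa* (-0.021), *Rps19* (-0.031), *Rps23* (-0.011), *Rpl38* (-0.057), *Rpl36* (-0.067), *Rpl18* (-0.017) and *Rpl35a* (-0.022), with all 12 libraries fitted *Rps15a* (-0.014), with RLE *Rps15a* (-0.0076), with upper quartiles *Rpl10* (0.00030), and with DESeq2 *Rps15a* (-0.0070). For c-Myc + R172H over juvenile these were with the family's own sum *Rps3a1* (-0.25) and *Rpl29* (-0.50), and without a filter *Rplp0* (0.019). Without 1 library the direction turned for juvenile over adult in *Rps25* (-0.0065 to 0.17), *Rps15a* (-0.14 to 0.14), *Rpl36a* (-0.13 to 0.040), *Rpl38* (-0.032 to 0.056), *Rps15* (-0.11 to 0.0097) and *Rpl39l* (-0.075 to 0.42). Without 1 library the direction turned for c-Myc over juvenile in *Rpl36a* (-0.13 to 0.095), *Rpl39* (-0.15 to 0.10) and *Rpl15* (-0.095 to 0.058). Without 1 library the direction turned for c-Myc + R172H over c-Myc in *Rpl10* (-0.15 to 0.076), *Rps27a* (-0.092 to 0.015), *Rplp1* (-0.092 to 0.11), *Rps15a* (-0.10 to 0.087), *Rps26* (-0.0080 to 0.040), *Rpl14* (-0.064 to 0.15), *Rps20* (-0.068 to 0.11), *Rpl4* (-0.023 to 0.11), *Rpsa* (-0.013 to 0.11), *Rps19* (-0.051 to 0.13), *Rps23* (-0.018 to 0.13), *Rpl38* (-0.052 to 0.070), *Rpl18* (-0.053 to 0.16), *Rplp0* (-0.019 to 0.94) and *Rpl36* (-0.026 to 0.030). Without 1 library the direction turned for c-Myc + R172H over juvenile in *Rplp0* (-0.30 to 0.14), *Rpl39* (-0.19 to 0.063), *Rpl34* (-0.23 to 0.043) and *Rpl29* (-0.011 to 0.26).

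Calls between juvenile and adult cells were 1 higher and 2 lower without a filter, where 399 of all genes were called higher and 578 lower. They were 2 and 2 with all 12 libraries fitted (461 and 633 of all genes) and 1 and 1 with DESeq2 (319 and 616). Without 1 library 0 to 1 members were called in either direction (median -0.043 to 0.044). Of all genes 85 to 344 were then called higher and 199 to 541 lower. Members lower in c-Myc-induced cells numbered 3 without a filter and 2 with DESeq2, where 2973 and 3356 of all genes were lower. They numbered 0 with at least 10 counts in every library (2965 of all genes) or only the groups compared fitted (2977). Without 1 juvenile library 0 to 1 members were lower and 65 to 67 higher. Of all genes 3014 to 3337 were then lower and 3535 to 3761 higher. Without any 1 library the members' median was 0.55 to 0.66. Without 1 juvenile library 64 to 68 members were higher in c-Myc + R172H over juvenile cells, as were 3752 to 3998 of all genes. Without any 1 library the members' median in this comparison was 0.62 to 0.73. Between the induced groups 1 member was higher without a filter (*Rps3a1*), where 14 of all genes were called higher and 208 lower. With only the 4 induced libraries 2 members were higher (*Rpl15* and *Rpl5*), where 189 of all genes were called higher and 440 lower. The reported fit called 1 and 58. Without 1 library the median ran from -0.035 to 0.11, with *Rplp0* at 0.94 without c-Myc replicate 1 and *Rps3a1* at 2.19 without replicate 2. Leaving out a c-Myc library leaves 1, assumed to vary like the other groups.

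Same-numbered libraries did not deviate together between juvenile and adult cells (r from -0.079 to 0.053), so their numbers were not taken as pairs. In the other comparisons with juvenile cells r was -0.040 to 0.056. Between the induced groups both pairs gave r = 0.17, a single value, since the deviations of 2 libraries mirror each other. Pairing could not be judged where a group has only 2 libraries, and no pairs were used there. With a replicate block 0 members were lower and 65 higher in c-Myc over juvenile cells, where 3640 of all genes were lower and 4044 higher. In c-Myc + R172H over juvenile cells 67 members were then higher, as were 4267 of all genes. Between the induced groups 1 member (*Rpl15*, 0.43, adjusted p = 0.0207) was then higher, where 30 of all genes were called higher and 296 lower. Chosen after seeing the data, a reading of the 13 tested members with under 10% shared windows gave 0 lower in both the age and c-Myc comparisons. Over all genes 3.23% and 25.0% were lower. The 1 member called lower in each comparison had 50% or more shared windows, so this choice of members fixed the outcome and tests nothing. The causes of these changes were not tested. The depth, 2 induced libraries a group and the shared windows limit what can be said of single members.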
